A study of Mus musculus with 4 samples.

Results

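ErbB receptors are the family of receptor tyrosine kinases that bind EGF-like growth factors, and 10 genes of this system were read from a deposited table of 24043 rows: the 4 receptors Egfr, Erbb2, Erbb3 and Erbb4, and the 6 ligands Areg, Btc, Hbegf, Tgfa, Ereg and Nrg1. The members were taken by gene symbol, and each had a row with a value in all 4 libraries. The libraries were made from YFP+ cells sorted out of mammary tumors of female MMTV-PyMT mice, in which a viral oncogene under a mammary promoter drives epithelial tumors. All mice carried the R26Y reporter (Rosa26-Stop-YFP, switched on by Cre) and had received Ad-K8-Cre, an adenovirus with Cre under the Krt8 promoter, into the ducts 2 to 3 months earlier. The labels give the 2 wild-type libraries as Lsd1+/+ and title the other 2 knockout, for which the study's design names conditional Lsd1 alleles (Lsd1L/L); Lsd1, a histone demethylase, is encoded by Kdm1a. The mice were of unstated age, and pooling of animals was not stated either.

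ErbB receptors work as pairs. Ligand binding opens the extracellular part of EGFR, ERBB3 or ERBB4 for pairing, ERBB2 binds no known ligand and serves as a partner, and ERBB3 has a kinase domain with little activity that recruits PI3K once a partner phosphorylates it. The ligands are made as membrane-bound precursors that proteases release: amphiregulin (Areg) and TGF-alpha (Tgfa) bind EGFR, betacellulin (Btc), HB-EGF (Hbegf) and epiregulin (Ereg) bind EGFR and ERBB4, and neuregulin 1 (Nrg1) binds ERBB3 and ERBB4. In the mammary gland amphiregulin is known as the ligand that relays estrogen signals to duct growth.

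Kdm1a, the targeted gene, stood at 52.5 and 22.9 FPKM in the wild-type libraries against 20.2 and 22.8 FPKM in those titled knockout (FPKM: reads divided by transcript length and by the total of the library). A gene-level value does not separate deleted from kept exons, and the labels of these samples disagree, with Lsd1+/+ under tissue and knockout under genotype, so they are called knockout-labelled libraries. From the steps of low values, each library held an estimated 20300000 to 24500000 reads. Within the wild-type pair 83.2% of 12461 genes differed beyond the 95% limit of sampling noise. Within the pair labelled knockout 45.8% of 11909 did, where 5% is the share from sampling alone. Reads for this check were approximated from each gene's longest annotated transcript and an assumed depth, so both shares are approximate and can be too high. The first wild-type library held the most luminal epithelial RNA and the second the most macrophage RNA. The 9 luminal epithelial markers summed to 12741 and 2810 FPKM in wild-type and to 756 and 776 FPKM in the knockout-labelled pair, with all 9 lower there and none at 0. The 10 lymphocyte markers summed to 14.8 and 61.9 FPKM against 1802 and 1701 FPKM, all 10 higher and none at 0. The 8 macrophage markers summed to 167 and 4527 FPKM against 218 and 207 FPKM, with none at 0. The 6 neutrophil markers summed to 259 and 538 FPKM against 1120 and 1202 FPKM, with Mmp8 listed at 0 in the first wild-type library, and the 6 basal markers summed to 500.4 and 130 FPKM against 74.5 and 90.5 FPKM. The 6 endothelial and 7 fibroblast markers were highest in the second wild-type library, at 173 and 470 FPKM, and at 21.2 to 30.2 and 161 to 173 FPKM in the other 3 libraries. In bulk samples fewer cells of a type and less RNA per cell cannot be told apart, and the part of these markers in the results that follow was not tested.

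Promoter sequences are given for the receptor gene Egfr and for Areg, the most abundant ligand in 3 of 4 libraries. Windows of 6 of the 10 members were used, from the RefSeq table of build GRCm38.p6. Each window runs from 250 bases before to 50 after the start. Capitals mark matches, on either strand, to GCCNNNGGC (bound by AP-2), GGGCGG (Sp1), TGANTCA (AP-1), TGACGTCA (the cAMP response element) or TATAAA (the TATA box).
Egfr, chr11:16751953-16752252, plus strand: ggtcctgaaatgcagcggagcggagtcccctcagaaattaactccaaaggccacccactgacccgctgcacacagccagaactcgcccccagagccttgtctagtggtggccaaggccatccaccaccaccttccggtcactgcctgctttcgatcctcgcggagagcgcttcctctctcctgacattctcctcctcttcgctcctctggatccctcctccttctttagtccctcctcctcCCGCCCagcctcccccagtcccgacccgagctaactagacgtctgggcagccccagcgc
Areg, chr5:91139349-91139648, plus strand: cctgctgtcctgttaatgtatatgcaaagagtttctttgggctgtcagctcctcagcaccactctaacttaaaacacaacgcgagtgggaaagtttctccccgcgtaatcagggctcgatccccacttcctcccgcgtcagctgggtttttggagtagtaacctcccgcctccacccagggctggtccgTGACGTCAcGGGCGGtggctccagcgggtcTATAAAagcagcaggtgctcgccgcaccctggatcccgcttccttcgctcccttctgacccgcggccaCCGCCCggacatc
The Areg window held 1 match to TATAAA, 1 to TGACGTCA and 2 to GGGCGG, 1 on each strand. The Egfr window held 1 match to GGGCGG on the minus strand. Among 32851 promoters of that length TGACGTCA was found in 1.79%, TATAAA in 13.6%, GGGCGG in 35.7%, GCCNNNGGC in 16.6% and TGANTCA in 7.81%. The Erbb2, Erbb4 and Btc windows held none of these motifs, and the Tgfa window held 2 matches to GCCNNNGGC and 2 to GGGCGG. A match describes the letters only.

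All 4 receptor genes had lower FPKM in both knockout-labelled libraries than in either wild-type library, but no receptor passed the test across all genes. When libraries were scaled to the luminal markers, the direction flipped for Egfr and Erbb2 and the difference of Erbb3 became 0.02. Under that scaling the median difference of all tested genes was 2.44. Erbb3, the receptor of neuregulins, was at 6.37 and 2.48 FPKM in the wild-type pair against 0.515 and 0.528 FPKM in the knockout-labelled pair. Behind these values stood 644, 208, 47 and 52 reads. The lowest wild-type value was 4.70 times the highest value labelled knockout, so the groups were apart by more than either pair's spread, and mean log2(FPKM + 1) differed by -1.74, knockout-labelled minus wild-type (SE 0.43, 2 libraries a group; limma, adjusted p = 0.0692).

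Egfr, the receptor of amphiregulin and TGF-alpha, was at 9.35 and 1.95 FPKM in the wild-type pair against 0.755 and 0.837 FPKM in the knockout-labelled pair. The groups did not overlap, but the first wild-type library exceeded the second 4.80-fold, a wider gap than the 2.33-fold between the second and the highest knockout-labelled library. The log2 difference was -1.62 (SE 0.68; limma, adjusted p = 0.166). Erbb2, the partner receptor known as Neu or HER2, followed the same order of libraries, at 8.48 and 1.83 FPKM against 0.662 and 0.760 FPKM. Its log2 difference was -1.60 (SE 0.66; limma, adjusted p = 0.161), and its wild-type libraries differed 4.64-fold.

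Erbb4, the other neuregulin receptor, which is known for its role in the lactating gland, was the lowest of the receptors in every library. It was at 0.438 and 0.135 FPKM in the wild-type pair against 0.0103 and 0.00956 FPKM in the knockout-labelled pair. These values correspond to 47, 12, 1 and 1 reads as the smallest whole numbers, and 1 read has an exact 95% Poisson interval of 0.0253 to 5.57 reads, which covers counting error only. Erbb4 reached 1 FPKM in no library and was not tested; the closest values of the groups, on 12 reads against 1, stood in a ratio of 13.1 with an exact 95% counting interval of 1.94 to 560.

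**Figure D1:**
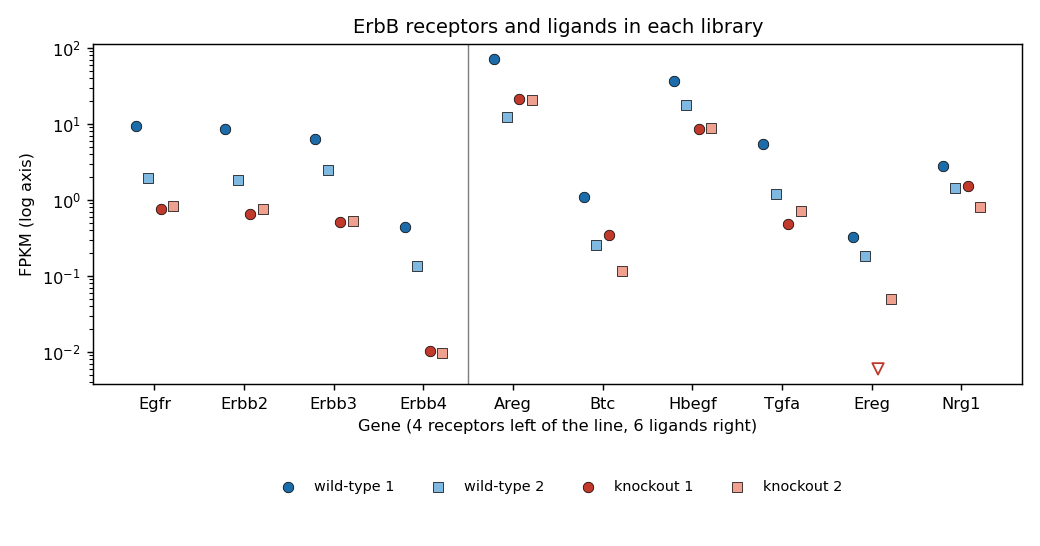
FPKM of the 4 receptors and 6 ligands in each library on a log axis, with circles for replicate 1 and squares for replicate 2; the open triangle marks Ereg listed at 0. Both values labelled knockout lie below both wild-type values for the 4 receptors and for Hbegf, Tgfa and Ereg, an order that under luminal marker scaling held for Erbb4 alone, and the first wild-type library is the highest for every gene.

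The ligands did not follow a common order. Areg was the most abundant member in 3 libraries, at 70.5 FPKM in the first wild-type library, 12.5 in the second, and 21.3 and 20.5 FPKM in the knockout-labelled pair. The values labelled knockout thus fell between the wild-type values. They rested on 1853, 272, 506 and 526 reads, so counting error was small beside the 5.64-fold gap within wild-type. The log2 difference was -0.50 (SE 0.88; limma, adjusted p = 0.702), and its sign depended on 1 library: it was 0.70 when wild-type library 1 was left out and -1.71 when library 2 was.

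Hbegf, whose precursor is also the receptor for diphtheria toxin, was at 37.1 and 17.8 FPKM in the wild-type pair against 8.57 and 8.75 FPKM in the knockout-labelled pair. It was carried by 2132, 847, 445 and 490 reads. Its groups did not overlap, with the lowest wild-type value 2.03 times the highest labelled knockout, and its log2 difference was -1.47 (SE 0.41; limma, adjusted p = 0.0831). Scaled to the luminal markers, the same gene was higher in both knockout-labelled libraries.

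Tgfa was at 5.39 and 1.19 FPKM in the wild-type pair against 0.477 and 0.713 FPKM in the knockout-labelled pair, on 575, 105, 46 and 74 reads. The groups did not overlap as deposited, the order flipped under luminal scaling, and the log2 difference was -1.23 (SE 0.59; limma, adjusted p = 0.205). Nrg1, the ligand of ERBB3 and ERBB4, was at 2.83 and 1.42 FPKM against 1.52 and 0.817 FPKM, on 142, 59, 69 and 40 reads. Its groups overlapped, each pair differed almost as widely as the other (1.99-fold and 1.86-fold), and the log2 difference was -0.51 (SE 0.34; limma, adjusted p = 0.335).

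Btc and Ereg were near the floor of these libraries and were not tested. Btc was at 1.09 and 0.256 FPKM in the wild-type pair against 0.344 and 0.116 FPKM in the knockout-labelled pair, on 77, 15, 22 and 8 reads, and its groups overlapped. Ereg was at 0.327 and 0.185 FPKM in wild-type, listed at 0 in the first knockout-labelled library and at 0.0493 FPKM in the second. Its reads were 34, 16, 0 and 5, and the Poisson upper limit for 0 reads was 3.69. The interval for 5 reads reached 11.7 and that for 16 reads began at 9.15, so the counting intervals of the second library of each pair overlapped. Overlap of separate intervals does not test a difference, and no ratio interval was computed for Ereg.

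Counted over the members, 7 of 10 did not overlap between groups with the knockout-labelled libraries lower, and none was higher. Over all rows above 0 in some library 28.8% were lower and 32.0% higher without overlap. Of the 10, 7 had at least 1 FPKM in 2 libraries and were tested; Egfr, Erbb2, Erbb3 and Tgfa passed that filter through the wild-type libraries alone. None of the 7 passed an adjusted p of 0.05 in limma, 2 had an unadjusted p under 0.05 (Erbb3 and Hbegf), and 16.5% of all 11138 tested genes were called. Without the first wild-type library the log2 difference was -0.72 for Egfr, -0.72 for Erbb2, -0.96 for Hbegf, -0.46 for Tgfa and -0.18 for Nrg1, and without the second it was -2.53, -2.47, -1.98, -2.01 and -0.84.

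The wild-type libraries themselves differed along the family: all 10 members were higher in the first than in the second, by 1.76-fold (Ereg) to 5.64-fold (Areg). Over all rows above 0 in some library 46.0% were higher in the first. The luminal markers stood in the same order, with a geometric mean of 734 FPKM in the first wild-type library, 165 in the second, and 42.5 and 45.0 in the knockout-labelled pair. Each member was therefore also expressed as a percent of that geometric mean, a ratio within a library that does not depend on how the library was scaled; the count on this ratio was added after the values were seen.

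On this ratio 3 receptors varied less than as deposited. Egfr and Erbb2 were higher in the knockout-labelled pair without overlap, as were 71.4% of all rows above 0 in some library. Egfr was at 1.27% and 1.18% in wild-type and at 1.78% and 1.86% in the knockout-labelled pair, and Erbb2 at 1.16% and 1.11% against 1.56% and 1.69%. Erbb3 overlapped between groups, at 0.869% and 1.51% against 1.21% and 1.17%. The wild-type libraries, which differed 4.80-fold in Egfr and 4.64-fold in Erbb2 as deposited, were thus close to each other on this scale. Erbb4 was the exception among receptors, at 0.0597% and 0.0820% in wild-type and at 0.0243% and 0.0212% on 1 read each in the knockout-labelled pair.

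Most ligands were higher on the same ratio in the knockout-labelled pair. Areg was at 9.61% and 7.59% in wild-type against 50.2% and 45.6%, with the wild-type values now close together and 5.57-fold below by group means. Hbegf was at 5.06% and 10.8% against 20.2% and 19.4%, and Nrg1 at 0.385% and 0.861% against 3.58% and 1.82%. Tgfa was at 0.735% and 0.723% against 1.12% and 1.58%, Btc at 0.148% and 0.156% against 0.811% and 0.258%, and Ereg overlapped. In all, 7 members were higher, 1 lower and 2 overlapping on this ratio, while 71.4% of all rows above 0 in some library were higher and 1.91% lower without overlap. The count of higher members is thus near the share of all rows. Refitted on libraries scaled to the luminal markers, the median log2 difference of all tested genes was 2.44, against 0.08 as deposited. Areg, at 2.38, stood near that median, and Egfr (0.37), Erbb2 (0.32), Erbb3 (0.02), Tgfa (0.48), Nrg1 (1.26) and Hbegf (1.32) stood below it.

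**Figure D2:**
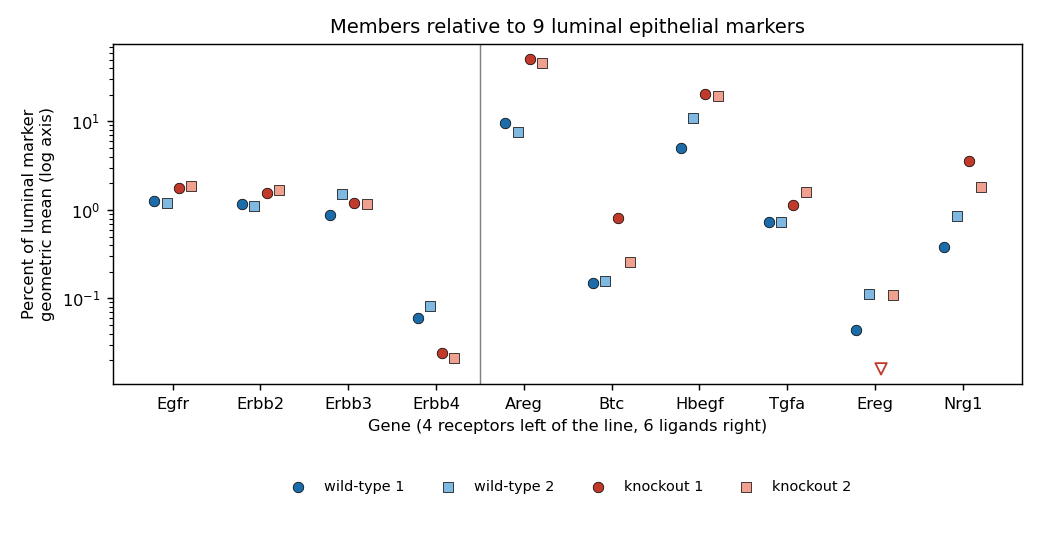
Each member's FPKM as a percent of the geometric mean FPKM of 9 luminal epithelial markers in the same library, on a log axis; circles are replicate 1, squares replicate 2, and the open triangle marks Ereg listed at 0. Egfr, Erbb2 and Erbb3 stay between 0.869% and 1.86% in all 4 libraries, while Areg is at 7.59% to 9.61% in wild-type and at 45.6% to 50.2% in the knockout-labelled pair, the reverse of the order of group means in FPKM.

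Summed over the 4 receptors, FPKM came to 24.6 and 6.39 for the wild-type pair and 1.94 and 2.13 in the knockout-labelled pair. Egfr made up 37.9% and 30.5% of this sum for the wild-type pair and 38.9% and 39.2% in the knockout-labelled pair, without overlap. The share of Erbb2 was 34.4% and 28.5% against 34.1% and 35.6%, and that of Erbb3 25.9% and 38.9% against 26.5% and 24.7%, so both overlapped between groups. Erbb3 was the most abundant receptor in the second wild-type library and the third in the other 3 libraries. Egfr stood above Erbb2 in all 4 libraries, and only the place of Erbb3 changed. Erbb4 made up 1.78% and 2.11% in the wild-type pair against 0.531% and 0.448% in the knockout-labelled pair, again on 1 read each.

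Among ligands, Areg and Hbegf together made up 90.9% to 94.5% of the summed FPKM in each library. The 6 ligands summed to 117 and 33.3 FPKM in wild-type and to 32.2 and 31.0 FPKM in the knockout-labelled pair, so the second wild-type library was close to them. Areg took 60.1% and 37.5% for the wild-type pair and 66.1% and 66.3% in the knockout-labelled pair, and Hbegf 31.7% and 53.4% against 26.6% and 28.3%. The wild-type pair differed more from each other in both shares than the first wild-type library differed from the knockout-labelled libraries. Tgfa made up 4.60% and 3.57% against 1.48% and 2.30%, without overlap, and Nrg1 2.41% and 4.25% against 4.72% and 2.64%, with overlap. With 2 libraries against 2 the exact permutation test cannot give a p below 0.333, so these shares were not tested.

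**Figure D3:**
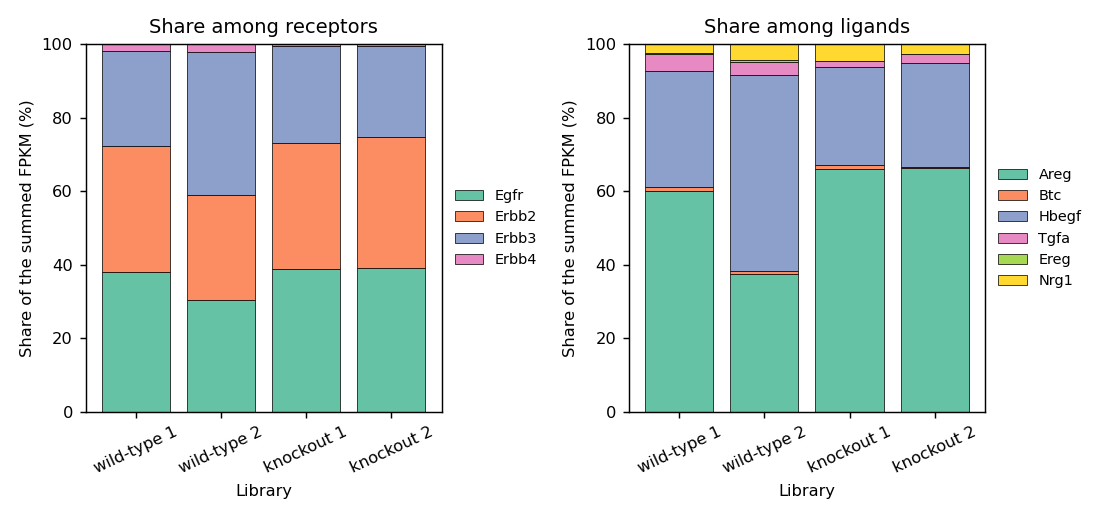
Stacked bars give the percent of the summed FPKM of the 4 receptors (left) and of the 6 ligands (right) that each gene makes up in each library. Egfr, Erbb2 and Erbb3 share the receptor sum in all libraries, and Areg makes up 66.1% and 66.3% of the ligand sum in the knockout-labelled pair and 60.1% and 37.5% in the wild-type pair.

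Set against each other, ligand RNA outweighed receptor RNA by more in the knockout-labelled pair. The ratio of the summed ligand FPKM to the summed receptor FPKM came to 4.76 and 5.21 for the wild-type libraries against 16.6 and 14.5 in the knockout-labelled pair. The groups did not overlap, and the wild-type libraries, far apart in most single members, were close in this ratio. Without Areg the ratio was 1.90 and 3.26 against 5.62 and 4.90, so the order of the groups did not rest on Areg. By group means the ratio was 3.12 times as high with all 6 ligands and 2.04 times as high without Areg. This ratio was chosen after the values were seen. Summed ligand FPKM was 117 and 33.3 in wild-type against 32.2 and 31.0 in the knockout-labelled pair. Summed receptor FPKM was 24.6 and 6.39 against 1.94 and 2.13. Luminal markers were lower and lymphocyte and neutrophil markers higher in the knockout-labelled libraries, and the part of these markers in the ratio was not tested.

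**Figure D4:**
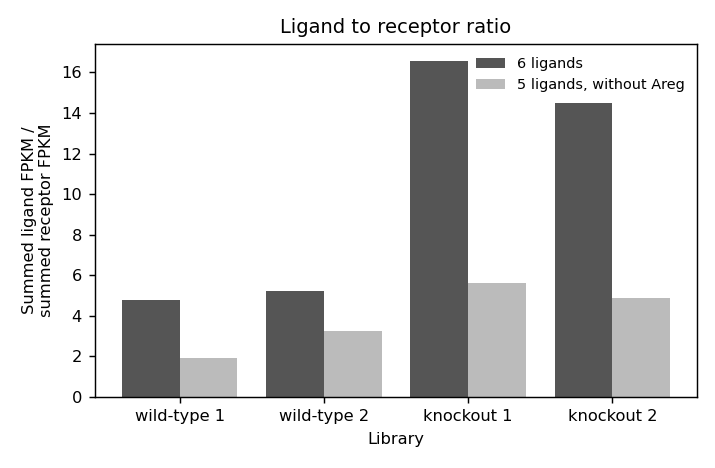
Bars give the summed FPKM of the ligands divided by the summed FPKM of the 4 receptors in each library, with all 6 ligands (dark) and without Areg (light). The ratio with all ligands is 4.76 and 5.21 for the wild-type libraries against 16.6 and 14.5 in the knockout-labelled pair.

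The other EGF-family ligands were low and none reached 1 FPKM in 2 libraries. Epgn (epigen) was at 4.49 and 0.700 FPKM in the wild-type pair against 0.390 and 0.155 FPKM in the knockout-labelled pair, and Nrg2 at 4.06 and 0.521 against 0.255 and 0.281 FPKM. Both stood high in the first wild-type library alone, as Egfr and Tgfa did. Nrg4 was at 0.921 and 0.715 against 0.655 and 0.743 FPKM and Egf at 0.340 and 0.0300 against 0.183 and 0.145 FPKM, both with overlap, and Nrg3 was listed at 0 in all 4 libraries.

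Of 51 further pathway genes 44 were tested; 7 fell and 2 rose in the knockout-labelled pair (limma, adjusted p under 0.05), against 6.99% lower and 9.51% higher among all tested genes. The median log2 difference of the 44 was -0.06 and that of all tested genes 0.08. All 9 calls ended with no filter on low values. Those of the 7 genes that fell also ended, with the sign turned, when libraries were scaled to the luminal markers. Under that scaling the median log2 difference of all tested genes was 2.44, and 99.8% of the genes called were higher. A turned sign is therefore not particular to these genes, here and in the lists below. Those of Braf, Dusp6, Etv4 and Fos ended with a pseudocount of 0.1, those of Dusp6 and Fos with one of 5, those of Braf, Etv4 and Fos with a plain prior, and those of Braf, Dusp6, Etv4 and Rhbdf1 when libraries were rescaled to a common total.

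Of the 4 genes for sheddases and for protease trafficking, 1 fell. Rhbdf1, an inactive rhomboid that guides the protease ADAM17 to the surface, fell from 35.4 and 22.5 FPKM to 9.05 and 8.19 FPKM. Its log2 difference was -1.61 (SE 0.29, limma, adjusted p = 0.0437), and the sign turned under luminal scaling. The other 3 did not pass. Its relative Rhbdf2 was at 15.0 and 13.1 against 8.27 and 8.47 FPKM, the sheddase Adam17 at 13.1 and 20.04 against 12.1 and 11.3 FPKM, and Adam10 at 9.56 and 14.6 against 8.96 and 8.46 FPKM. The median log2 difference of the list was -0.56.

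Of 7 tested genes that restrain the receptors 1 rose and none fell. Cblb, a ubiquitin ligase that marks receptors for degradation and is also known for its role in T cells, rose from 2.67 and 1.77 FPKM to 19.7 and 17.8 FPKM (log2 difference 2.63, SE 0.25; limma, adjusted p = 0.0243). In the same libraries the lymphocyte markers summed to 1802 and 1701 FPKM, against 14.8 and 61.9 FPKM in wild-type, and their part in the rise was not tested. Errfi1 (Mig6), which binds and blocks the EGFR kinase and is itself induced by its signal, was at 256 and 85.5 FPKM in the wild-type pair. It was at 32.1 and 31.1 FPKM in the knockout-labelled pair (limma, adjusted p = 0.0778). As for Egfr, the first wild-type library was the highest and the second came next. Lrig1, a membrane protein that lowers receptor levels, was at 4.40 and 2.09 against 6.18 and 7.62 FPKM and the ubiquitin ligase Cbl at 1.23 and 1.34 against 1.96 and 2.49 FPKM; neither passed. The list median was 0.24, and 0.45 without the second wild-type library.

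The 8 adaptors had a median log2 difference of -0.03, with 1 gene that fell and none that rose. Gab1, a docking protein that links EGFR to PI3K and SHP2, fell from 7.07 and 5.76 FPKM to 1.13 and 1.40 FPKM (log2 difference -1.71, SE 0.24; limma, adjusted p = 0.0319), and its sign turned under luminal scaling. Grb7, an adaptor whose gene is a close neighbour of Erbb2, was at 11.4 and 4.93 against 2.88 and 3.06 FPKM without passing. Crk was at 24.2 and 12.9 against 9.19 and 9.86 FPKM, and the Ras activator Sos1 at 1.20 and 0.612 against 1.67 and 2.09 FPKM; neither passed.

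In the Ras-ERK cascade the median log2 difference of 10 genes was 0.51 (0.32 without the second wild-type library), with 1 gene that rose and none that fell. Braf, a kinase that Ras activates, rose from 0.670 and 0.598 FPKM to 1.98 and 1.87 FPKM (log2 difference 0.84, SE 0.17; limma, adjusted p = 0.0493), and this call also ended under median centring and quantile normalization, the latter ending that of Etv4 too. Braf passed the filter on low values through the knockout-labelled libraries alone. Map2k1 (MEK1) was at 23.8 and 26.7 against 43.1 and 47.4 FPKM, while Mapk3 (ERK1) was at 25.3 and 46.1 against 10.5 and 9.91 FPKM and Hras at 64.7 and 39.5 against 18.8 and 19.2 FPKM. None of these 3 passed, although in each the groups did not overlap as deposited; under luminal scaling the groups of Mapk3 overlapped and the order of Hras flipped.

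Genes known to be induced by ERK signals had negative medians as deposited, -0.84 for 7 tested feedback inhibitors and -1.42 for 8 transcription factors. The feedback median is the value of Spry2, which passed the filter on low values through the wild-type libraries alone. Under luminal scaling the log2 difference of each gene named below as lower turned positive. On the luminal ratio the groups of Spred1, Etv4 and Etv5 overlapped. Spred1, an inhibitor of Ras activation, fell from 6.31 and 6.47 FPKM to 1.41 and 1.23 FPKM (log2 difference -1.67, SE 0.21; limma, adjusted p = 0.0297), with a wild-type pair closer than in any receptor. Dusp6, the phosphatase that inactivates ERK, fell from 49.4 and 29.9 FPKM to 12.7 and 10.7 FPKM (adjusted p = 0.0476). Spry1 did not pass, at 8.51 and 12.6 against 3.33 and 4.73 FPKM, nor did the phosphatase gene Dusp4, which was higher in the knockout-labelled pair at 7.87 and 4.82 against 11.2 and 11.7 FPKM.

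Among the transcription factors 3 fell and 5 did not pass. The ETS factors Etv5 and Etv4 fell from 3.69 and 4.40 to 0.889 and 0.643 FPKM and from 1.63 and 1.50 to 0.451 and 0.164 FPKM (limma, adjusted p = 0.0338 and 0.0459), and both signs turned under luminal scaling. Both genes passed the filter on low values through the wild-type libraries alone. Fos, an immediate early gene, fell from 316 and 509 FPKM to 149 and 152 FPKM (adjusted p = 0.0490). Egr1 was at 94.1 and 52.3 against 23.9 and 23.7 FPKM and did not pass (adjusted p = 0.0599). Unlike the receptors, Etv5 and Fos were higher in the second wild-type library than in the first. Without the first wild-type library the feedback list median was -0.32 and the transcription factor median -0.91.

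**Figure D5:**
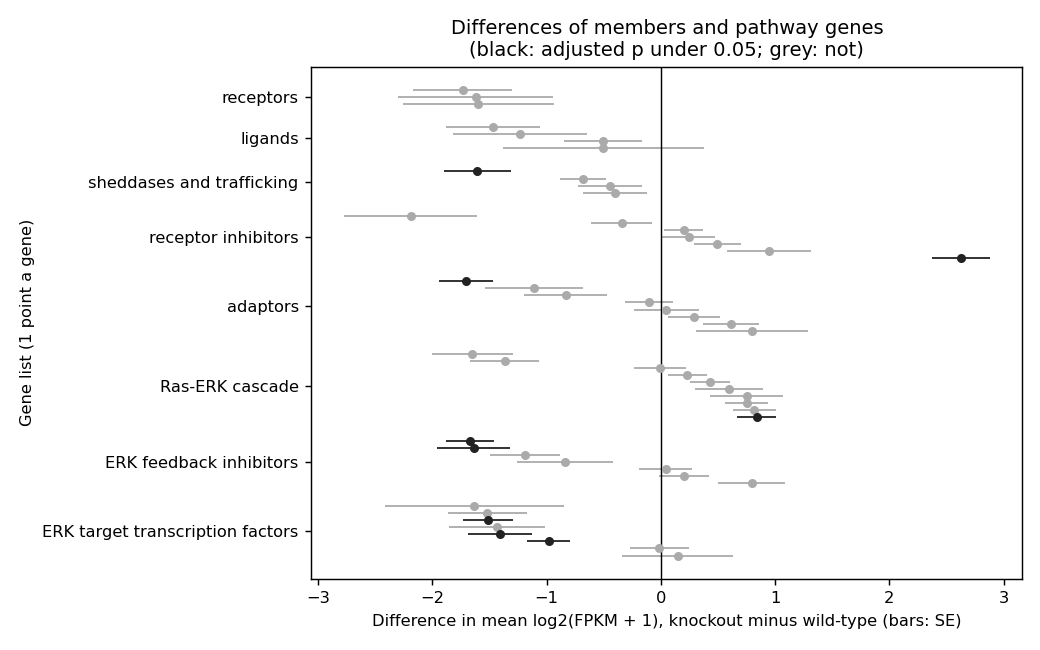
Each point is the difference in mean log2(FPKM + 1), knockout minus wild-type, of 1 tested member or pathway gene, with its SE, grouped by list; black points passed an adjusted p of 0.05. No receptor or ligand is black, and 7 pathway genes are black on the negative side and 2 on the positive side. The negative ones turn positive when libraries are scaled to the luminal markers, where the median of all tested genes is 2.44.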

How the data were processed

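Libraries were prepared with a low-input Clontech SMARTer mRNA kit, per the labels' protocols, and the submitters' processing notes name the build mm9; no source used here names an aligner, counting tool or annotation. The deposited values were read as FPKM, since column totals differ and low values of a gene stand in whole-number ratios between libraries; the file's header names no unit. For 8 members the smallest whole numbers of reads that gave 1 common number of reads per FPKM within 0.001% were taken as reads, where the implied transcript length lay within a factor of 1.5 of GENCODE M21 lengths; true reads could be a multiple. Depth was estimated from 357 single-transcript genes. Of 24043 rows, 92 spike-in rows, all at 0, were left out; 1 list gene was matched through an older symbol (Emr1 for Adgre1).

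Genes with at least 1 FPKM in 2 libraries (11138) entered a limma fit (version 3.58.1, R 4.3.3) of log2(FPKM + 1) on genotype alone, with a robust prior that follows the mean level. The Benjamini-Hochberg threshold was 0.05. The pseudocount makes log2 differences of low genes too small. No label ties the libraries to separate animals, so p-values reflect only how these libraries spread. On simulated data for this comparison over 11138 genes 44.0% of genes with a 4-fold and 93.0% with a 16-fold change were recovered. In these runs 0.6 unchanged genes were called per run, with noise drawn independently for each gene. The changed genes were drawn from the more highly expressed genes only. Of the tested members only Areg and Hbegf lay at such a level, so these rates do not describe the receptors, Tgfa or Nrg1. Named pathway genes were up to 4 per list with the lowest p and a mean of at least 1 FPKM. Members and lists were chosen with earlier results of these data known. The closing section gives the effect of 14 alternative settings.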

Additional observations from a re-analysis of the deposited data

How the results depend on the processing

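The count of genes past the threshold was 1837 (57.6% of them higher), and 2 with no filter on low values, 8025 (99.8% higher) with libraries scaled to the luminal markers and 501 (69.1% higher) with the replicate block; leaving out 1 library in turn gave 0 to 7912. Of the members 0 passed, against 1 (Nrg1) under luminal scaling and 0 to 7 on leaving out 1 library: 5 without wild-type replicate 1 and 7 without wild-type replicate 2, the lone library being assumed to vary like the other group, and 0 without either knockout-labelled library. In limma 9 pathway genes passed, 5 with a pseudocount of 0.1, 0 with no filter (20 at an unadjusted p under 0.05), 26 under luminal scaling, 1 (Cblb) with the replicate block and 0 to 32 on leaving out 1 library. Under luminal scaling 72.1% of all 11138 tested genes passed. When 1 wild-type library was left out, most of all tested genes passed as well. The higher counts in these settings are therefore not particular to the members or the pathway genes. Across genes, the deviations of same-numbered libraries from their group means correlated at -0.06. With 2 libraries a group, both numbers give this same value by construction. It cannot show whether same-numbered libraries shared a batch. The members kept a negative sign in the other settings that tested them (all 7, but Areg and Hbegf alone with the filter at 5 FPKM), except where luminal scaling gave 0.37 for Egfr, 0.32 for Erbb2, 0.021 for Erbb3, 2.38 for Areg, 1.32 for Hbegf, 0.48 for Tgfa and 1.26 for Nrg1, and where Areg ranged from -1.71 to 0.70 on leaving out 1 library (0.70 without wild-type replicate 1). Luminal scaling also turned Rhbdf1 (1.18), Rhbdf2 (1.99), Adam17 (2.24), Adam10 (2.20), Errfi1 (0.75), Gab1 (0.42), Grb7 (1.34), Crk (1.92), Mapk3 (1.13), Hras (1.52), Spred1 (0.44), Dusp6 (1.20), Spry1 (1.28), Etv5 (0.25), Etv4 (0.15), Fos (1.56) and Egr1 (1.39), against a median of 2.44 for all tested genes. On leaving out 1 library the adaptor median ranged from -0.16 to 0.041, positive without wild-type replicate 1 (0.029) or knockout replicate 1, and the difference in the share of Btc from -0.47 to 0.22 percentage points, positive without knockout replicate 2. The difference in the share of Nrg1 was 0.35, but -0.57 without wild-type replicate 1 and -0.69 without knockout replicate 1 (percentage points). Fewer samples or another divisor define these settings; the cause of the other changes was not tested. Depth limits Erbb4, Ereg and Btc.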
